A study of Mus musculus with 12 samples.

Results

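Immediate-early genes are switched on within minutes of a stimulus, without new protein synthesis, and 10 of them were followed here in macrophages of a tumour-sphere culture: Fos, Fosb, Jun, Junb, Egr1, Egr2, Atf3, Nr4a1, Ier2 and Btg2. Each is measured by the probe set that carries its symbol alone and has the highest mean over the 12 arrays. All 10 had such a probe set among 17097 named genes, and all 10 were above the filter level and tested among 12488. The rule uses names and mean levels, not differences between groups.

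The cells were bone marrow-derived macrophages of C57BL/6 mice added to spheres of TT9423, a mouse neuroblastoma line, with 3 Affymetrix arrays a group. The groups were CD11b+ macrophages isolated from within the spheres at 48 h and at 24 h, and macrophages of the same cultures that remained outside the spheres at 48 h and at 24 h. Each replicate was an independent experiment pooled over several wells. No sample of macrophages without tumour cells was analysed here, so all 4 groups share the co-culture. Spheres were taken apart with collagenase P, collagenase/dispase and DNase I before selection on CD11b columns. The sources used here do not say whether the outside cells passed through the same digestion and columns, and the protocol text of the 48 h samples also describes 24 h of co-culture.

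Most of these genes encode transcription factors. Fos and Jun proteins pair as the AP-1 factor, EGR proteins bind GC-rich sites through zinc fingers, and Nr4a1 is an orphan nuclear receptor. Their promoters respond to kinases that act on factors already present, such as SRF with its ETS-type partners, CREB, and Jun itself, and their transcripts are short-lived. Tissue dissociation with warm enzymes is a known trigger of the same genes, and the spheres were digested here.

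Promoter sequence is shown for the members with the largest difference at 24 h (Jun and Btg2), for Fos, and for Nr4a1, the member called in opposite directions at 48 h and 24 h. The windows are the 250 bases before the start site in RefSeq (GRCm38.p6), which listed 8 of the 10 members. Motifs were searched on both strands, and capitals mark each match. The motifs were the CArG box bound by SRF, the cAMP response element TGACGTCA, the variant TGACATCA known from the Jun promoter, the AP-1 site TGANTCA, the TATA box TATAAA, the EGR site GCGNGGGCG and the ETS core CCGGAA. The Jun window lies at chr4:95052223-95052472 (minus strand), the Btg2 window at chr1:134079156-134079405 (minus strand), the Fos window at chr12:85473640-85473889 (plus strand) and the Nr4a1 window at chr15:101266596-101266845 (plus strand).
Jun: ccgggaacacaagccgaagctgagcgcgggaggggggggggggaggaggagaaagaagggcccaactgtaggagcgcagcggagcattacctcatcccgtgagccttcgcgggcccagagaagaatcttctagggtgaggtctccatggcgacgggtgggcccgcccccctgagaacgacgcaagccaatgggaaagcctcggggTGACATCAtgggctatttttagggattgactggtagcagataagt
Btg2: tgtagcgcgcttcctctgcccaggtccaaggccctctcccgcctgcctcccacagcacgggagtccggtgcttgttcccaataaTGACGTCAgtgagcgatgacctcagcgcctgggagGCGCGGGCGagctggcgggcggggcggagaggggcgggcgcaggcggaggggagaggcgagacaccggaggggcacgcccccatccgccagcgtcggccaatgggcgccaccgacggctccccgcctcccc
Fos: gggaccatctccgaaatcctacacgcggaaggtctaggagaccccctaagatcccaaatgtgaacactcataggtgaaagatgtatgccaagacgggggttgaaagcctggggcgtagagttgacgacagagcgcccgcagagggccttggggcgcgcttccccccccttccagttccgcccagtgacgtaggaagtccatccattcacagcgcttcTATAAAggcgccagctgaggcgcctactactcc
Nr4a1: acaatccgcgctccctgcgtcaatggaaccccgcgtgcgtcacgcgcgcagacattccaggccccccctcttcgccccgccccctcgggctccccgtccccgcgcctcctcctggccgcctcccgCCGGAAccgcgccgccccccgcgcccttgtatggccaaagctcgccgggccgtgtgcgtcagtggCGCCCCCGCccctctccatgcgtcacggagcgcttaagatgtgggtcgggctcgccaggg

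The windows hold different matches. The Jun window holds TGACATCA from base -45 to -38 before the start, a variant found in 2.93% of 32851 mouse promoter windows. The Btg2 window holds TGACGTCA from -166 to -159, found in 1.55% of windows, and an EGR site from -131 to -123, found in 4.7%. The Fos window holds TATAAA from -33 to -28, found in 12.4%. The Nr4a1 window holds an EGR site on the opposite strand from -60 to -52 and an ETS core, found in 12% of windows, from -125 to -120. Among the 8 listed members, the CArG box (1.47% of windows) was found in Egr2 alone and TGANTCA (6.75% of windows) in 0. These matches describe letters in the windows and show no binding.

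Some facts of the arrays touch every result. The 8 macrophage markers were above the filter level on all 12 arrays, Itgam (the gene of CD11b) among them. In spheres 1 of the 8 was called higher and 2 lower at 48 h, and 0 higher and 2 lower at 24 h. Of all tested genes 15.2% were called higher and 22.3% lower at 48 h, and 15.8% higher and 13.6% lower at 24 h. Replicate 3 in spheres at 48 h had a mean log2 value of 4.06, against 4.20 to 4.22 on the other 11 arrays. The 3' minus 5' log2 value of the beta-actin controls is larger in degraded RNA. It ran from 0.393 to 0.416 in spheres and from 0.370 to 0.396 outside at 48 h (exact permutation p = 0.20, two-sided). At 24 h it ran from 0.350 to 0.604 in spheres and from 0.224 to 0.324 outside (exact permutation p = 0.10, two-sided, the smallest that 3 against 3 arrays allow). The same value of the GAPDH controls ran from 0.110 to 0.146 in spheres and from 0.053 to 0.098 outside at 48 h (exact permutation p = 0.10, two-sided). At 24 h the GAPDH value ran from -0.124 to 0.425 in spheres and from -0.043 to 0.169 outside (exact permutation p = 0.70, two-sided). Granulocytes also carry CD11b. Of 9 tested granulocyte markers 7 were called lower in spheres at each time. The other 2 were not called and lay above 0, Mpo (0.62 ± 0.46 at 48 h, 0.63 ± 0.46 at 24 h, SE) and Elane (0.80 ± 0.39 at 48 h, 0.71 ± 0.39 at 24 h). Mean levels of the 9 ran from 8.83 to 9.62 in spheres and 10.25 to 10.78 outside at 48 h. At 24 h they ran from 9.42 to 10.23 in spheres and 10.71 to 11.16 outside. Of 11 tested neuroblastoma and neural markers 3 were higher at 48 h and 2 at 24 h. The axonal gene Gap43 (4.41 ± 0.30 at 48 h, 3.99 ± 0.30 at 24 h, SE) and Ncam1 (1.64 ± 0.20 at 48 h, 0.99 ± 0.20 at 24 h) were called at both times. The 8 markers not called at 48 h ran from -0.21 (Dbh) to 0.64 (Mycn). The 9 not called at 24 h ran from -0.36 (Dbh) to 0.15 (Elavl4). The 48 h count includes Elavl4, which was above the filter level on the 3 in-sphere arrays at 48 h and on 0 of the other 9, and so passed the filter only through the group where it was high. Gata3, Chga and Tubb3 exceeded the filter level on 0 of 12 arrays. Mean levels of the 14 markers with a probe set, Gap43 and Ncam1 included, ran from 3.31 to 3.39 in spheres and 2.81 to 2.85 outside at 48 h. At 24 h they ran from 3.27 to 3.42 in spheres and 2.96 to 3.07 outside. Fibroblast and stromal markers had 7 of 10 higher and 1 lower at 48 h (mean levels of 5.66 to 5.81 in spheres and 4.20 to 5.00 outside), and 6 higher and 1 lower at 24 h (5.23 to 5.99 in spheres and 4.20 to 4.68 outside). The part of RNA quality or of other cells in the results below was not tested.

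At 24 h the immediate-early genes were lower in macrophages from spheres. Limma called 8 of the 10 lower and 0 higher at a Benjamini-Hochberg adjusted p under 0.05, where 13.6% of all tested genes were called lower and 15.8% higher (29.4% in either direction). The 8 were Fos, Jun, Junb, Egr1, Egr2, Nr4a1, Ier2 and Btg2. The median log2 difference of the 10 members was -0.64, against -0.0068 over all tested genes. In 9 members every in-sphere array lay below every outside array, a separation seen in 21.5% of tested genes, and in 0 members every one lay above (22% of tested genes). Values below are log2 expression. Errors of differences are standard errors of the fit for n = 3 against 3 arrays, with each gene's spread estimated over all 12 arrays. In pooled RNA, fewer cells of a type and less RNA per cell cannot be told apart. The digestion of the spheres cannot be told apart from the compartment in this design.

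**Figure D1:**
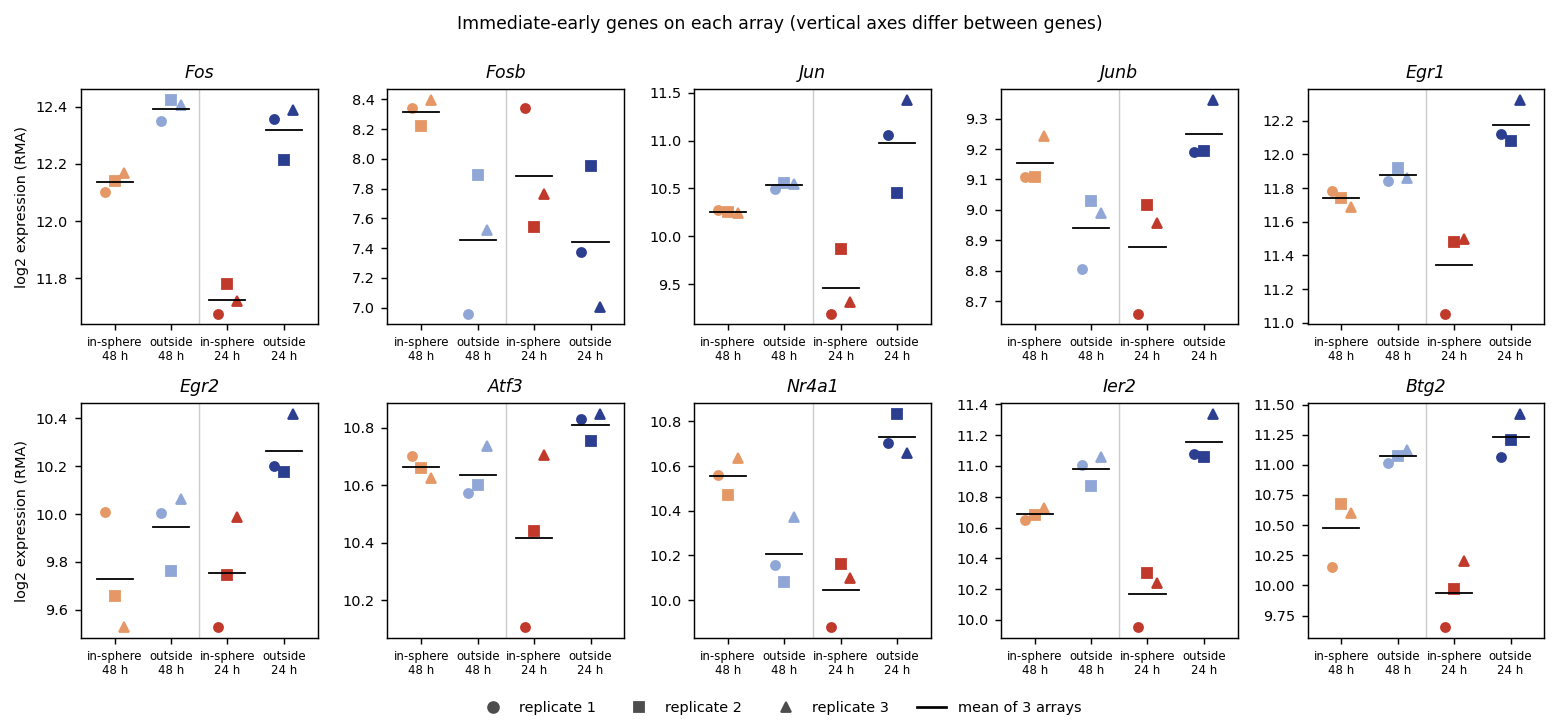
Log2 expression (RMA, vertical axis, scaled separately for each gene) of the 10 immediate-early genes on each of 12 arrays, with in-sphere beside outside macrophages at 48 h and then at 24 h. Symbols are replicates and bars are means of 3 arrays; at 24 h the in-sphere arrays lie below the outside arrays in 9 genes, Fosb being the exception.

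Within AP-1, Jun differed most by the brighter of its probe sets, whose values follow. The dimmer one gave -0.58 ± 0.14 at 24 h (adjusted p = 0.0104), near the difference of Fos. Values of the brighter one were 9.19, 9.87 and 9.31 on in-sphere arrays and 11.06, 10.45 and 11.43 on outside arrays at 24 h. Both groups were spread widely, over 0.68 and 0.98, and still did not overlap. The difference was -1.52 ± 0.22, or 2.88-fold lower in spheres (adjusted p = 3.38e-04). Fos, its classical partner, had 11.68, 11.78 and 11.72 in spheres and 12.36, 12.22 and 12.39 outside. Its arrays were tight in each group, and the difference of -0.60 ± 0.098 was called with an adjusted p of 7.40e-04.

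The other AP-1 members ranged from a small fall to no call. Junb, which can replace Jun in AP-1 and often restrains it, had 8.66, 9.02 and 8.96 in spheres and 9.19, 9.19 and 9.36 outside (-0.37 ± 0.12, adjusted p = 0.0404). Its groups were separated only narrowly, and the call of Junb was lost under 12 of 21 alternatives, among them without in-sphere replicate 1 (adjusted p = 0.140) or outside replicate 3 (adjusted p = 0.133) at 24 h, with adjusted p from 0.0177 to 0.140 in all. Atf3, a stress-induced factor that dampens inflammatory genes, had 10.11, 10.44 and 10.71 in spheres and 10.83, 10.75 and 10.85 outside. Its difference of -0.39 ± 0.14 narrowly missed the threshold (adjusted p = 0.0517), with in-sphere replicate 3 next to the outside arrays. Without that array the difference of Atf3 was called, at -0.54 and an adjusted p of 0.00896 (from 0.00896 to 0.179 over all alternatives).

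Fosb, a Fos relative, did not share the direction at 24 h. It had 8.34, 7.54 and 7.77 in spheres and 7.37, 7.95 and 7.00 outside, so the groups overlapped. The difference was 0.44 ± 0.28 (adjusted p = 0.274), with a 95% interval from -0.16 to 1.04.

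The EGR factors were both lower in spheres at 24 h. Egr1, which is induced by ERK signalling and takes part in monocyte to macrophage maturation, had 11.05, 11.48 and 11.50 in spheres and 12.12, 12.08 and 12.32 outside. The groups did not overlap, and the difference was -0.83 ± 0.13 (adjusted p = 5.83e-04). Egr2, a relative linked to macrophage differentiation, had 9.53, 9.74 and 9.99 in spheres and 10.20, 10.17 and 10.42 outside (-0.51 ± 0.16, adjusted p = 0.0296). The Egr2 call was lost without in-sphere replicate 1 (adjusted p = 0.114), in-sphere replicate 2 (adjusted p = 0.0719), outside replicate 1 (adjusted p = 0.0549) or outside replicate 3 (adjusted p = 0.107) at 24 h, and its adjusted p ran from 0.00868 to 0.114 over all alternatives.

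The remaining members were lower as well. Btg2, an antiproliferative protein that binds the CCR4-NOT deadenylase and is a p53 target, had 9.65, 9.97 and 10.20 in spheres and 11.07, 11.20 and 11.42 outside. Its groups were separated by more than either group's own range, with a difference of -1.29 ± 0.17, or 2.45-fold lower (adjusted p = 1.76e-04). Ier2, a small nuclear early response protein, had 9.95, 10.30 and 10.24 in spheres and 11.07, 11.06 and 11.34 outside (-0.99 ± 0.13, adjusted p = 1.33e-04). Nr4a1, which limits inflammatory gene expression in macrophages, had 9.88, 10.16 and 10.10 in spheres and 10.70, 10.83 and 10.66 outside (-0.69 ± 0.12, adjusted p = 0.00121). The calls of Fos, Jun, Egr1, Nr4a1, Ier2 and Btg2 at 24 h held under all 21 alternatives.

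**Figure D2:**
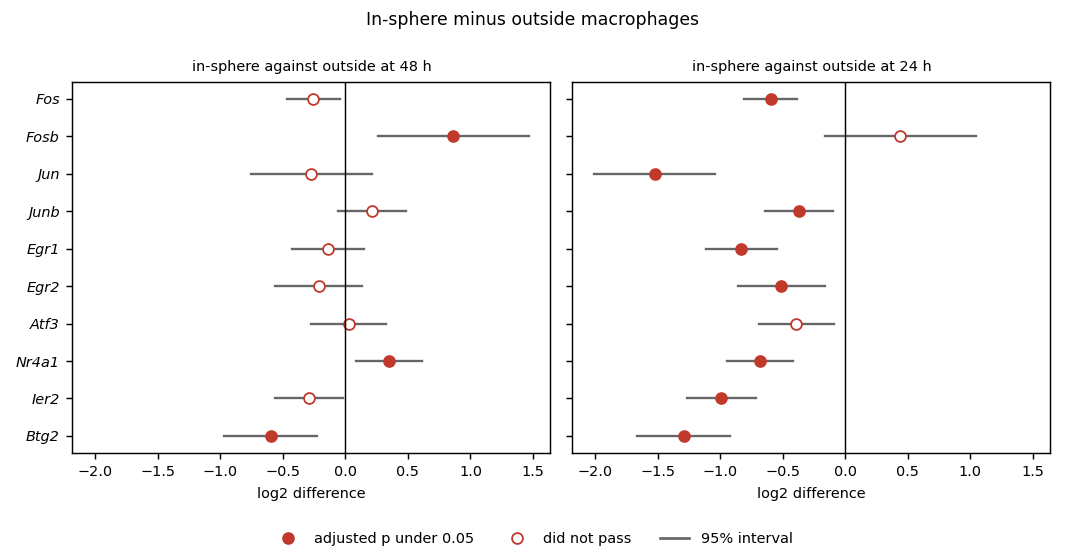
Log2 difference (horizontal axis, in-sphere minus outside) of each gene at 48 h and at 24 h, with 95% intervals of the limma fit; filled points passed an adjusted p of 0.05. At 48 h, 2 genes passed above 0 and 1 below; at 24 h, 8 genes passed below 0.

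At 48 h the calls were fewer and lay in both directions. Fosb and Nr4a1 were higher in spheres and Btg2 was lower, and the other 7 were not called. The share called higher (2 of 10) compares with 15.2% of all tested genes and the share called lower (1 of 10) with 22.3% (37.5% in either direction), so these counts are near the background. The median of the 10 members was -0.18, against -0.10 over all tested genes. Centring each array on its median moved the median of all genes at 48 h by 0.12. Relative to that shift Fosb (0.98, adjusted p = 0.0144) and Nr4a1 (0.47, adjusted p = 0.0369) were still higher, while Btg2 differed by -0.48 and was not called (adjusted p = 0.0925).

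Fosb carried the largest difference of the members at 48 h. It had 8.34, 8.22 and 8.40 in spheres and 6.96, 7.89 and 7.52 outside, a difference of 0.86 ± 0.28 (adjusted p = 0.0279). The in-sphere arrays were tight and lay above all outside arrays, which spread over 0.93. Among outside arrays replicate 2 was the highest for Fosb at 48 h (7.89) and at 24 h (7.95). Nr4a1 had 10.56, 10.47 and 10.63 in spheres and 10.16, 10.08 and 10.37 outside, a difference of 0.35 ± 0.12 (adjusted p = 0.0389). Its groups did not overlap, in the direction opposite to 24 h. The 48 h call of Nr4a1 was lost under 8 of 21 alternatives, among them the most variable probe set (adjusted p = 0.0546), array weights (adjusted p = 0.0579), only the groups compared (adjusted p = 0.0604) and without outside replicate 2 at 48 h (adjusted p = 0.139), and its adjusted p ran from 0.0116 to 0.139 in all.

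Btg2 kept the direction it had at 24 h. It had 10.15, 10.67 and 10.60 in spheres and 11.02, 11.07 and 11.12 outside at 48 h (-0.60 ± 0.17, adjusted p = 0.0156). All 3 in-sphere arrays were below the outside arrays, replicate 1 the furthest. These 48 h calls rest on few arrays. Without in-sphere replicate 1 at 48 h 0 of the 10 members were called (adjusted p = 0.0620 for Fosb, 0.0790 for Nr4a1 and 0.0633 for Btg2). Without in-sphere replicate 3, outside replicate 1 or outside replicate 3 at 48 h 1 member was called.

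The uncalled members at 48 h had small differences. Ier2 had 10.65, 10.68 and 10.73 in spheres and 11.00, 10.87 and 11.06 outside (-0.29 ± 0.13, adjusted p = 0.0909). Fos had 12.10, 12.14 and 12.17 in spheres and 12.35, 12.42 and 12.41 outside (-0.26 ± 0.098, adjusted p = 0.0553). Both had arrays that did not overlap, and both passed with an intensity trend and robust prior (adjusted p = 0.0354 for Ier2 and 0.00480 for Fos). With centred arrays both differences were smaller and neither passed (-0.17, adjusted p = 0.461 for Ier2, and -0.14, adjusted p = 0.501 for Fos). In all, 3 members (Fosb, Junb and Nr4a1) had every in-sphere array above the outside arrays (20.7% of tested genes). Another 5 (Fos, Jun, Egr1, Ier2 and Btg2) had every one below (31% of tested genes). Jun differed by -0.27 ± 0.22, with a 95% interval from -0.76 to 0.21. That interval uses the spread of Jun over all 12 arrays. Its SD was 0.011 in spheres and 0.030 outside at 48 h, against 0.36 in spheres and 0.49 outside at 24 h. With only the groups compared, Jun was still not called at 48 h. Egr1 (-0.14 ± 0.13), Egr2 (-0.21 ± 0.16), Junb (0.21 ± 0.12) and Atf3 (0.025 ± 0.14) had adjusted p from 0.205 to 0.908.

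The in-sphere difference was more positive at 48 h than at 24 h in all 10 members, by 0.30 for Egr2 to 1.25 for Jun. For Jun this sign belongs to the brighter of its probe sets. The other gave -0.14 ± 0.20, and the mean of both gave 0.56. The median of this change was 0.64, against -0.10 over all tested genes. The test of the change called 0 of 12488 genes and 0 members (smallest adjusted p of all genes 0.0657). At an unadjusted p under 0.05 it had 7 members with a more positive and 0 with a more negative difference, where 3.89% of tested genes had a more positive and 8.39% a more negative one. Nr4a1 changed by 1.03 ± 0.17 (95% interval 0.66 to 1.41, unadjusted p = 5.68e-05, adjusted p = 0.107). With the replicate number as a block, Nr4a1 was called (adjusted p = 0.0421), and with this block it was the 1 member called. The change of Jun was 1.25 ± 0.31 (adjusted p = 0.169), followed by Ier2 at 0.70 ± 0.18 (adjusted p = 0.171), Egr1 at 0.69 ± 0.19 (adjusted p = 0.178), Btg2 at 0.69 ± 0.24 (adjusted p = 0.285) and Junb at 0.58 ± 0.18 (adjusted p = 0.220).

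**Figure D3:**
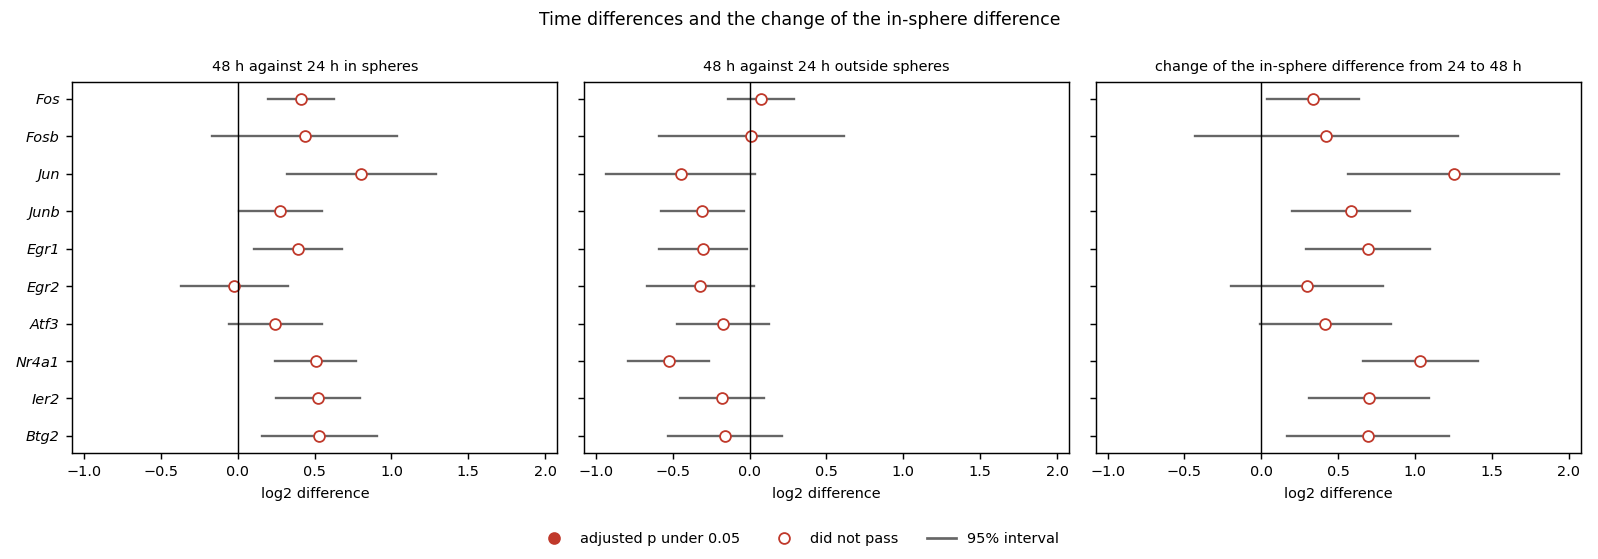
Log2 differences (horizontal axis) with 95% intervals of the limma fit for 48 h minus 24 h in spheres, 48 h minus 24 h outside, and the 48 h in-sphere difference minus that at 24 h. All points are open because 0 members passed an adjusted p of 0.05; in the panel of the change, all 10 points lie above 0, for Jun with the brighter of its probe sets.

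Time was also compared within each compartment. In spheres, 48 h against 24 h called 0 of 12488 genes. At an unadjusted p under 0.05, 7 members were higher at 48 h and 0 lower, against 3.03% and 7.71% of tested genes. Jun averaged 10.26 ± 0.011 at 48 h and 9.45 ± 0.36 at 24 h in spheres (SD, n = 3 each), a difference of 0.80 ± 0.22 (SE, adjusted p = 0.248). The spread of Jun between replicates was over an order of magnitude smaller at 48 h. Btg2 (0.53 ± 0.17), Ier2 (0.52 ± 0.13) and Nr4a1 (0.51 ± 0.12) came next by size, with adjusted p from 0.195 to 0.325. Fosb (0.43 ± 0.28, adjusted p = 0.594) and Fos (0.41 ± 0.098, adjusted p = 0.195) followed, and Egr2 was near 0 (-0.023 ± 0.16, and 0.13 with centred arrays). In 6 members every 48 h array in spheres lay above every 24 h array, as in 4.46% of tested genes, and in 0 below (9.3% of tested genes). Centring each array moved the median of all genes by 0.15 here and by 0.18 for the change between the times, and the 10 centred changes were again all above 0.

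Outside the spheres the members leaned the other way. Here 42 genes (0.336%, with 0.112% higher and 0.224% lower) and 0 members were called, and at an unadjusted p under 0.05 there were 3 lower and 0 higher members, where 4.56% of tested genes were lower and 6.27% higher. Nr4a1 averaged 10.21 ± 0.15 at 48 h and 10.73 ± 0.092 at 24 h outside (SD, n = 3 each), a difference of -0.53 ± 0.12 (SE, adjusted p = 0.104). By size, Jun (-0.45 ± 0.22, adjusted p = 0.505), Egr2 (-0.32 ± 0.16, adjusted p = 0.505), Junb (-0.31 ± 0.12, adjusted p = 0.383) and Egr1 (-0.30 ± 0.13, adjusted p = 0.426) followed. The 3 members with an unadjusted p under 0.05 were Nr4a1, Junb and Egr1. In 5 members every 48 h array outside lay below every 24 h array, as in 8.66% of tested genes, and in 0 above (13.4% of tested genes). Both compartments therefore enter the change of Nr4a1, at 0.51 in spheres and -0.53 outside.

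The order of the 4 groups differed between members. Jun (by its brighter probe set), Egr1, Ier2 and Btg2 were lowest in spheres at 24 h, then in spheres at 48 h. Outside at 48 h came next, and outside at 24 h was highest. Of the neighbours in that order, only in-sphere against outside at 48 h for Btg2 was called. Fos had the same order but for its outside groups, which differed by 0.073 ± 0.098 (adjusted p = 0.850). Nr4a1 ran from spheres at 24 h through outside at 48 h and spheres at 48 h to outside at 24 h. Of its neighbours only the middle pair was a call of the fits above, and neither end pair was among the 5 comparisons. Junb and Atf3 had the order of Nr4a1, but their middle pair was not called (0.21 ± 0.12, adjusted p = 0.205 for Junb, and 0.025 ± 0.14, adjusted p = 0.908 for Atf3). For Atf3 the sign of that pair changed under 2 of 21 alternatives. Egr2 was lower in both in-sphere groups than in both outside groups, and Fosb was higher in both.

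Probe sets of the same gene did not always match. Btg2 had a further probe set whose in-sphere difference was -0.65 ± 0.14 at 48 h (adjusted p = 0.00355) and -1.56 ± 0.14 at 24 h (adjusted p = 1.26e-05). That of Egr2 gave -0.31 ± 0.23 at 48 h (adjusted p = 0.320) and -0.80 ± 0.23 at 24 h (adjusted p = 0.0208). These follow the probe sets used above. The dimmer Jun probe set did not. It gave -0.71 ± 0.14 at 48 h (adjusted p = 0.00232) and -0.58 ± 0.14 at 24 h (adjusted p = 0.0104), so its change between the times was -0.14 ± 0.20, in contrast to 1.25 ± 0.31. For 48 h against 24 h it gave 0.16 ± 0.14 in spheres and 0.30 ± 0.14 outside, where the brighter one gave 0.80 ± 0.22 and -0.45 ± 0.22. That Jun was lower in spheres at 24 h was shared by both probe sets, whereas its smaller difference at 48 h was seen by 1 of them. With the mean of both, Jun was lower at 48 h too (-0.49, adjusted p = 0.00776).

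Related genes are given by lists. Of 17 tested other AP-1 family genes and partners 2 were higher and 4 lower at 48 h, and 1 was higher and 2 lower at 24 h. Of all tested genes 15.2% were higher and 22.3% lower at 48 h, and 15.8% were higher and 13.6% lower at 24 h. The small Maf protein gene Maff was higher (1.15 ± 0.22 at 48 h, 0.74 ± 0.22 at 24 h), its relative Mafg lower (-1.10 ± 0.14 at 48 h, -0.81 ± 0.14 at 24 h), and Batf lower at 24 h (-0.89 ± 0.17). Fosl2, a Fos relative, was higher at 48 h (0.63 ± 0.17, adjusted p = 0.0102). The list medians were -0.12 at 48 h and -0.056 at 24 h, against -0.10 and -0.0068 over all tested genes.

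Other early response genes were split. Of 35 tested, 14 were higher and 8 lower at 48 h (15.2% and 22.3% of all tested genes). At 24 h 7 were higher and 8 lower (15.8% and 13.6% of all tested genes). The list medians were 0.16 at 48 h and -0.10 at 24 h, against -0.10 and -0.0068 over all tested genes. Higher at both times were the matricellular gene Ccn1 (2.41 ± 0.31 at 48 h, 2.55 ± 0.31 at 24 h), Myc (0.88 ± 0.22 at 48 h, 1.20 ± 0.22 at 24 h) and the Krüppel-like factor Klf4 (1.55 ± 0.17 at 48 h, 1.05 ± 0.17 at 24 h). Lower at both times were Ccn2 (-1.21 ± 0.33 at 48 h, -1.25 ± 0.33 at 24 h), the kinase Plk3 (-0.86 ± 0.24 at 48 h, -0.80 ± 0.24 at 24 h) and the Btg2 relative Tob1 (-0.46 ± 0.16 at 48 h, -0.77 ± 0.16 at 24 h). Nr4a2, of the same receptor family as Nr4a1, was higher at 48 h (1.39 ± 0.20, adjusted p = 2.31e-04) and differed by -0.47 ± 0.20 at 24 h (adjusted p = 0.108). Nr4a3, named after its values were seen, was higher at 48 h too (1.27 ± 0.34, adjusted p = 0.0118) and differed by -0.059 ± 0.34 at 24 h (adjusted p = 0.928). Calls in opposite directions were not particular to Nr4a1. Ier3, also named after its values were seen, was called higher at 48 h (0.65 ± 0.17, adjusted p = 0.0103). At 24 h Ier3 was called lower (-0.57 ± 0.17, adjusted p = 0.0240). The change of Nr4a2 between the times was 1.86 ± 0.29 (adjusted p = 0.107). For 48 h against 24 h Nr4a2 was called lower outside the spheres (-1.35 ± 0.20, adjusted p = 0.0203). In spheres it differed by 0.52 ± 0.20 and was not called (adjusted p = 0.403).

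Feedback genes had more higher than lower calls. This list mixes several signalling pathways, with Spry, Spred and Dusp genes beside Socs genes, Nfkbia, Nfkbiz and Tnfaip3. Of 19 tested 10 were higher and 1 lower at 48 h (15.2% and 22.3% of all tested genes). At 24 h 9 were higher and 1 lower (15.8% and 13.6% of all tested genes). The list medians were 0.48 at 48 h and 0.36 at 24 h, against -0.10 and -0.0068 over all tested genes. The JNK and p38 phosphatase gene Dusp16 (2.21 ± 0.18 at 48 h, 2.78 ± 0.18 at 24 h), the cytokine signalling inhibitor Socs3 (1.82 ± 0.15 at 48 h, 1.67 ± 0.15 at 24 h) and the Ras pathway inhibitor Spred2 (1.69 ± 0.17 at 48 h, 1.64 ± 0.17 at 24 h) were higher. The nuclear phosphatase gene Dusp2 was the 1 lower gene, with -1.09 ± 0.32 at 48 h and -2.11 ± 0.32 at 24 h.

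Upstream kinases and factors had 4 higher and 10 lower of 24 tested at 48 h (15.2% and 22.3% of all tested genes). At 24 h 2 were higher and 9 lower (15.8% and 13.6% of all tested genes). The list medians were -0.38 at 48 h and -0.27 at 24 h, against -0.10 and -0.0068 over all tested genes. The SRF coactivator gene Mrtfa was lower (-1.51 ± 0.24 at 48 h, -1.04 ± 0.24 at 24 h), as was Mapk7, which encodes ERK5 (-1.46 ± 0.21 at 48 h, -0.90 ± 0.21 at 24 h). Elk3, an ETS-type SRF partner, was higher (1.42 ± 0.15 at 48 h, 1.52 ± 0.15 at 24 h).

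Heat-shock and dissociation-linked genes were a list kept beside the members because of the digestion. At 48 h 3 of 11 were higher and 1 lower (15.2% and 22.3% of all tested genes). At 24 h 4 were higher and 1 lower (15.8% and 13.6% of all tested genes). The list medians were 0.12 at 48 h and 0.18 at 24 h, against -0.10 and -0.0068 over all tested genes. The inducible chaperone gene Hspa1b, near-identical to Hspa1a, was higher at both times (2.17 ± 0.15 at 48 h, adjusted p = 1.38e-06, and 1.36 ± 0.15 at 24 h, adjusted p = 4.25e-05). The metallothionein gene Mt1 was also higher at both times (0.63 ± 0.18 at 48 h, 0.75 ± 0.18 at 24 h). Hsph1 (0.61 ± 0.13) was higher and Hspb1 (-1.54 ± 0.35) lower at 24 h. For 48 h against 24 h Hspa1b was called lower outside the spheres (-0.90 ± 0.15, adjusted p = 0.0284). In spheres Hspa1b differed by -0.095 ± 0.15 over time and was not called (adjusted p = 0.860). Both signs occurred in the list at 24 h, with 7 of 11 genes above 0 and 4 below. Whether enzymes, columns or time to lysis set any of these levels was not tested.

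**Figure D4:**
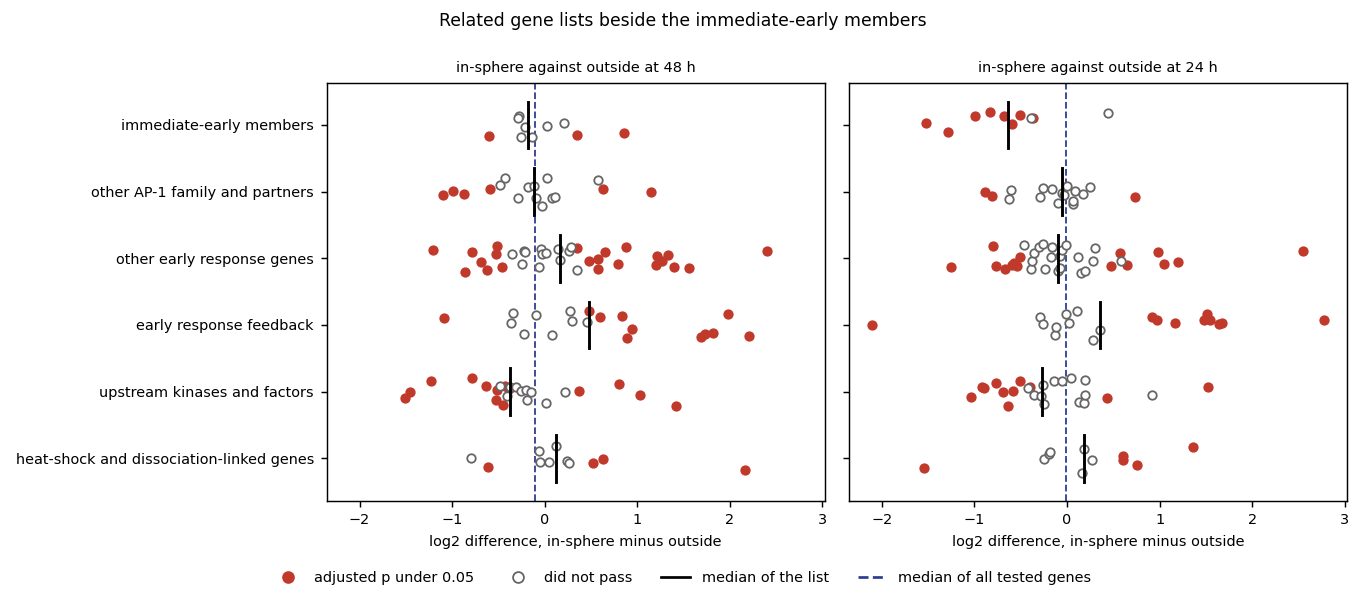
Log2 difference (horizontal axis, in-sphere minus outside) of each tested gene in the members and 5 related lists at 48 h and at 24 h; filled points passed an adjusted p of 0.05, black bars are list medians and the dashed line is the median of all tested genes. The members' median is -0.18 at 48 h and -0.64 at 24 h, and that of the feedback list is 0.48 at 48 h and 0.36 at 24 h.

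Genes with the most similar profile over the 12 arrays were found by Pearson correlation, as a description, since the points share 4 groups and a joint normalisation. For Jun they were Numa1 (r = 0.97), Ier2 (r = 0.95) and Pim3 (r = 0.95). For Fos they were Fam174a (r = 0.96), C1d (r = 0.96) and Zfand6 (r = 0.95). For Egr1 they were Ier2 (r = 0.96), 6330407A03Rik (r = 0.94) and Mon1b (r = 0.94).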

How the data were processed

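Expression was measured on 12 Affymetrix mouse arrays, 4 groups of 3. The authors deposited 1 log2 value per probe set and array. Per the submitters' processing notes, RMA and Affymetrix Expression Console 1.1 were used. RMA normalises the arrays jointly and compresses differences of dim and very bright probe sets. The log base is inferred from the range. Scanner files were not used here.

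Of 45141 probe sets 28898 carried 1 symbol in the platform annotation, 551 several and 15692 none. Per gene the probe set with the highest mean was kept, and 12488 of 17097 genes passed a filter level of 2.77, the 40th percentile of the table, in 3 or more arrays. A group-means model over all arrays was fitted with limma 3.58.1 (R 4.3.3), with Benjamini-Hochberg adjustment over all tested genes and calls at an adjusted p under 0.05. The script was tested on simulated data. Precision is limited by the number of arrays.

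Named genes are the 10 members, up to 3 called genes per direction and time of each further list, and the 3 most correlated genes of Jun, Fos and Egr1. Nr4a3 and Ier3 were named after their values were seen. The members and lists were chosen with earlier results of these data known. Replicate numbers come from the labels. Same-numbered arrays deviated together outside spheres (correlation of deviations 0.471, 0.473 and 0.419) and less for in-sphere against outside arrays (0.0215 to 0.120 at 24 h, 0.0417 to 0.117 at 48 h). Each number is an independent experiment per the series' design text. The reported model has no replicate term, and the fit with the number as a block is an alternative whose value is given where it changes a call. Alternatives were the replicate block, filters, probe set choice, the variance model, array weights, centring, the samples in the fit and leaving out each array.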

Additional observations from a re-analysis of the deposited data

Results flagged for a closer look

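Nr4a1 and Junb stood out because every in-sphere array lay above every outside array at 48 h and below every outside array at 24 h. For Nr4a1 the in-sphere difference was 0.35 ± 0.12 at 48 h and -0.69 ± 0.12 at 24 h (SE, n = 3 against 3), both called. The 48 h call was lost under 8 of 21 alternatives (adjusted p from 0.0116 to 0.139), and the 24 h call under 0. Its change between the times, 1.03 ± 0.17, had a limma adjusted p of 0.107, and from 0.0276 to 0.240 over the alternatives. For Junb the in-sphere difference was 0.21 ± 0.12 at 48 h, not called, and -0.37 ± 0.12 at 24 h, called. Its change of 0.58 ± 0.18 had an adjusted p of 0.220.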

How the results depend on the processing

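The 50 differences (10 members in 5 comparisons) were recomputed under up to 21 alternatives, giving 1040 values, of which 973 kept direction and side of the threshold, 31 lost a call, 23 gained one and 13 changed sign. The count of members called at 24 h was 7 to 9 under the 9 other settings and 6 to 9 when 1 array was left out, all lower in spheres. At 48 h the count of 3 became 5 with the mean of all probe sets and 5 with an intensity trend and robust prior, 2 with the most variable probe set, 2 with centred arrays and 2 with only the groups compared, and ran from 0 to 4 when 1 array was left out. The time comparisons called 1 member each in place of 0 with the intensity trend and robust prior and 1 each with array weights (Fos in spheres, Nr4a1 outside). The change of the in-sphere difference called 1 member, Nr4a1, with the replicate block, 1 with the trend and robust prior, 1 with array weights and 1 with centred arrays. The replicate block changed no other call of a member. The sign changes were all of values near 0. Atf3 at 48 h was -0.00040 with array weights and ran from -0.0062 to 0.074 when 1 array was left out. Egr2 in spheres over time was 0.053 with the mean of its probe sets, 0.13 with its most variable probe set and 0.13 with centred arrays, and ran from -0.16 to 0.094 when 1 array was left out. Fosb outside over time was -0.014 with centred arrays and ran from -0.21 to 0.27 when 1 array was left out. The cause was not tested. With 3 arrays a group, changes under about the size of the intervals given cannot be resolved.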
